A study of Mus musculus with 18 samples.

Results

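H3K9me3 was examined here in the 797 broadest stretches that it marked in wild-type mouse embryonic stem cells (mESCs). A stretch is a run of chromosome covered by a called H3K9me3 peak in the lists of both wild-type libraries, and a broad stretch is one on chromosomes 1 to 19 that was at least 15000 bp long. Of 104009 shared stretches, 797 (0.766%) were broad, and they held 16.6 Mb, or 5.54% of the 299 Mb shared by the wild-type lists. Because peak calls of the wild-type libraries chose the members, their length and full wild-type cover are given as a description, and no test of wild-type against knockout cells was made over them. Broad stretches had a median length of 18600 bp, against 2200 bp for all shared stretches. 484 of them were under 20 kb, 289 were 20 to 40 kb and 24 were 40 kb or longer. The length limit cut through a continuous range, with 30 stretches of 14800 bp and 35 of 15000 bp. Just inside it, the stretch at chr1:16036201-16051200 was covered over 64.0% and 90.7% in *Dhx9* KO replicates 1 and 2 and over 64.0% and 100% in *Uhrf1* KO replicates 1 and 2, and the one at chr11:52897001-52912000 over 78.7%, 82.7%, 58.7% and 92.0% in the same order. Just outside it, these values were 16.2%, 28.4%, 8.11% and 71.6% at chr8:124920601-124935400 and 78.4%, 56.8%, 0% and 35.1% at chr9:120976801-120991600.

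H3K9me3 is the trimethyl mark on lysine 9 of histone H3 that defines constitutive heterochromatin. It is written by SETDB1 and the SUV39H enzymes and read by HP1 proteins, and in mESCs it lies mainly over endogenous retroviruses, satellite repeats, zinc finger gene clusters and the methylated copies of imprinting control regions. UHRF1 is a ubiquitin ligase that recognises hemimethylated DNA and H3K9 methylation and brings DNMT1 to newly copied DNA, so that DNA methylation is passed on. DHX9 is a helicase that unwinds RNA, DNA and hybrids of both.

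Each genotype had 2 libraries: wild-type, *Dhx9* KO and *Uhrf1* KO. All cells were E14TG2a mESCs that carried, in every group, a TetR-3xFlag-KRAB fusion at *Rosa26* and an array of *tetO* sites with an eGFP reporter at the *Vim* locus. *Uhrf1* KO cells were single-cell clones made by transient transfection of a CRISPR-Cas9 plasmid. How the *Dhx9* KO cells were made is not described separately. The labels do not say whether the libraries of a knockout came from separate clones, so their spread may be technical in part, and the lists hold no expression, so the loss of *Uhrf1* or *Dhx9* was not checked here. ChIP reads within peaks numbered 16966576 to 20875020 in 5 libraries and 6703081 in *Uhrf1* KO replicate 1, whose peaks covered 203 Mb against 342 to 416 Mb in the others. Its peaks held 32.9 reads per kb, against 48.3 to 51.4 in the others. Background reads in peaks with identical limits were the same in all wild-type and *Dhx9* KO lists and differed in the *Uhrf1* KO lists, so that genotype and background cannot be told apart between the knockouts. Chromosome 8 stood apart: it carried 271 of the 797 broad stretches (34.0%) on 5.25% of the autosomal bases, and of the autosomal peaks of 15 kb or longer it held 7.32% in *Dhx9* KO replicate 1 but 34.8% in replicate 2. The part of chromosome 8 in the results was not tested, and counts are given with and without it.

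To show what these stretches consist of, the central 300 bases of 6 of them are printed, read from the plus strand of GRCm38 (mm10) in RefSeq, with CpGs, the sites at which DNA methylation is maintained, in capitals. They are the longest stretch, the stretch with the least cover in *Uhrf1* KO and the one with the least in *Dhx9* KO cells whose allowed central window holds no untranslated region, the longest stretch kept in all knockout libraries, and stretches at the imprinted genes *Meg3* and *Peg13*, which were added after their values were seen. The windows held 1 CpG (*Brsk2*), 3 (*Smpd3*, the kept stretch and *Meg3*), 6 (the longest stretch) and 8 (*Peg13*). Of their bases, 60.3% were soft-masked as repeats in the kept stretch and 29% in the longest one, against 0% in the other 4.
Longest stretch, outside genes, chr4:140307451-140307750: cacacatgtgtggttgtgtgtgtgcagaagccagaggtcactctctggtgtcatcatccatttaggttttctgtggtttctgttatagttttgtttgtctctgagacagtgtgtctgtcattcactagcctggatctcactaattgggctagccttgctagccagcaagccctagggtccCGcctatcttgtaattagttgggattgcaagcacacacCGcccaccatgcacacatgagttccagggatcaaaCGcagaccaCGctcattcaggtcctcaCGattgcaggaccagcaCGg
Least cover in *Uhrf1* KO, *Brsk2* intron, chr7:141989651-141989950: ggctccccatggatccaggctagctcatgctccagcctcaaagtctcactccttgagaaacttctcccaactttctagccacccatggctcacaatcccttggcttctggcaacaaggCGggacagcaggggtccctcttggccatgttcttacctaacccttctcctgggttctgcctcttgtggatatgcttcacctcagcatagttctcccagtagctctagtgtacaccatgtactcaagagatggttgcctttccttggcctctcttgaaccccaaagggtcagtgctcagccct
Least cover in *Dhx9* KO, *Smpd3* intron, chr8:106268551-106268850: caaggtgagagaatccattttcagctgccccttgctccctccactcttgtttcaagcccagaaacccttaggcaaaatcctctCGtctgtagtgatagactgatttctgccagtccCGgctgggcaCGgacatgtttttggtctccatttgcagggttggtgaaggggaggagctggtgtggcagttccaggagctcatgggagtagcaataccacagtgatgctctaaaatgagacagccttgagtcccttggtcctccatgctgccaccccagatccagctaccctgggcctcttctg
Longest kept stretch, *Gm49692* intron, chr12:20279551-20279850: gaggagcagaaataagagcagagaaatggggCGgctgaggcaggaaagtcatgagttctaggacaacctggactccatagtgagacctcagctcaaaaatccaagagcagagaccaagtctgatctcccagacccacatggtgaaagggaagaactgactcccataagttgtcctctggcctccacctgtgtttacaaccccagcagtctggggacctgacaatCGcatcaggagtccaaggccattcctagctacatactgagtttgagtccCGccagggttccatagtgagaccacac
Stretch at *Meg3*, outside genes, chr12:109534651-109534950: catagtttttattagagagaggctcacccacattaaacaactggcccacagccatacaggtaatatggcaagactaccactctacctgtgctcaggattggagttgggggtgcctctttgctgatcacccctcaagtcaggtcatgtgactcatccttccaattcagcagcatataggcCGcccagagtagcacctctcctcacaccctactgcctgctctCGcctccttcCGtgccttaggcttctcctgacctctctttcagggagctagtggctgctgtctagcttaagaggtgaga
Stretch at *Peg13*, *Trappc9* intron, chr15:72810551-72810850: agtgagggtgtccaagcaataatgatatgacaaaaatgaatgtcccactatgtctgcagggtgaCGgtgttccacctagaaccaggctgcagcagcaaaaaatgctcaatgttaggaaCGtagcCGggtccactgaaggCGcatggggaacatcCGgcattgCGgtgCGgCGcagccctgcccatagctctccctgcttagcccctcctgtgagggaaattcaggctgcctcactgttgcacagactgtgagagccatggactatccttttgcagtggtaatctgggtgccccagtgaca

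To ask how much of the broad heterochromatin remained without DHX9 or UHRF1, the share of each stretch covered by peaks was measured in each knockout library. Broad stretches stayed largely covered in 3 of the 4 knockout libraries. The median stretch was covered over 88.7% in *Dhx9* KO replicate 1 (middle 50% of stretches, 75.5% to 95.4%), 85.3% in replicate 2 (71.0% to 95.2%) and 89.2% in *Uhrf1* KO replicate 2 (69.2% to 98.7%). *Uhrf1* KO replicate 1, the library with the fewest ChIP reads within peaks, covered 30.8% (11.3% to 58.8%). Cover in the *Uhrf1* KO libraries thus differed far more between replicates than between replicate 2 and either *Dhx9* KO library. Averaged over libraries, the median was 60.0% in *Uhrf1* KO and 87.0% in *Dhx9* KO cells, a difference of -27.0 percentage points (exact permutation test over libraries, two-sided, p = 1, n = 2 per genotype, where the smallest p possible is 0.33). Without *Uhrf1* KO replicate 1 the difference was 2.25 points in the other direction. When each knockout list was cut to the called bases of the shortest list, keeping the peaks with the highest log2 fold, the medians were 34.7% and 16.9% in *Dhx9* KO and 30.8% and 20.5% in *Uhrf1* KO replicates 1 and 2, and the difference was -0.12 points. In bulk ChIP, fewer marked chromosome copies and less H3K9me3 per copy cannot be told apart.

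Off chromosome 8 the medians were 93.0% and 83.1% in *Dhx9* KO and 26.3% and 87.3% in *Uhrf1* KO replicates 1 and 2, and on it they were 69.3%, 89.9%, 40.3% and 93.8%. *Dhx9* KO replicate 1 was the only library with a lower median on chromosome 8 than elsewhere. The background reads of wild-type replicate 1 were also denser in the chromosome 8 members, with a median of 35.3 per kb against 24.3 elsewhere.

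**Figure D1:**
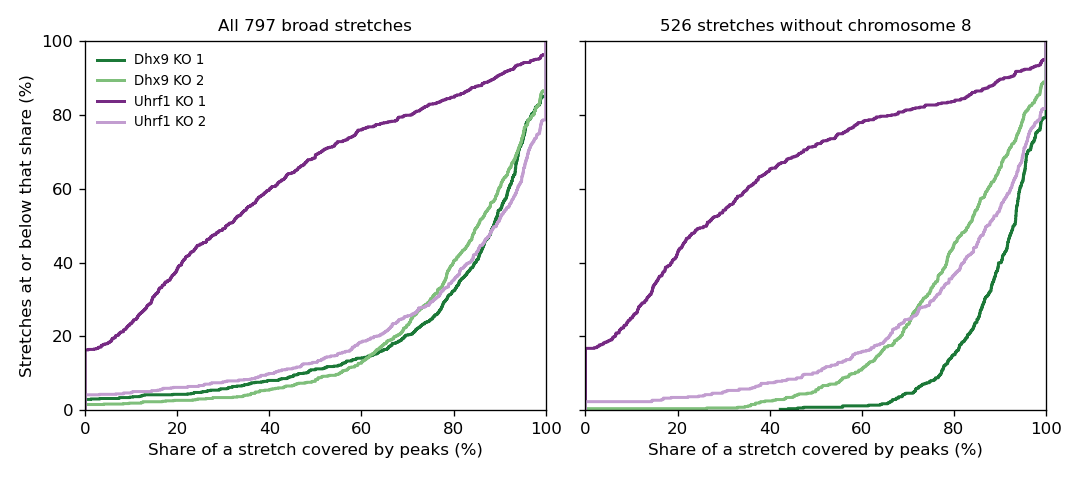
Cumulative share of broad stretches (y axis, %) at or below a given cover by peaks (x axis, %) in each knockout library, with one line per library and panels for the sets of stretches named in their titles. The line of *Uhrf1* KO replicate 1 rises early, with its median at 30.8%, whereas those of the other 3 libraries rise late, with medians of 85.3% to 89.2%.

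Because full wild-type cover follows from how the stretches were chosen, the shortfall in knockout lists was set beside a wild-type list that took no part in the choice. When wild-type replicate 1 alone chose 1729 autosomal peaks of 15 kb or longer, wild-type replicate 2 covered a median of 92.2% of each, *Dhx9* KO replicates 1 and 2 covered 82.9% and 76.3%, and *Uhrf1* KO replicates 1 and 2 covered 22% and 79.2%. When wild-type replicate 2 alone chose 1498, wild-type replicate 1 covered 94.0% and the same 4 knockout libraries covered 84.0%, 78.3%, 23.4% and 81.6%. In both cases the median of every knockout library lay below that of the held-out wild-type library. Off chromosome 8 this order held, with 90.9% for the held-out library against 86.4%, 73.5%, 19.2% and 77.5% in the first case and 93.5% against 88.2%, 76.1%, 20.2% and 79.8% in the other. With 1 held-out library there is no test of this difference.

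Cover was often broken into separate peaks in the knockouts. The longest unbroken run of cover within a stretch had a median of 12400 and 11600 bp in *Dhx9* KO and 3800 and 13000 bp in *Uhrf1* KO replicates 1 and 2. At least 2 separate peaks lay in 495 and 517 of the 797 stretches in *Dhx9* KO and in 402 and 415 in *Uhrf1* KO cells. The wild-type libraries have 1 peak each there by the choice of members, and a held-out wild-type list was broken as well. Of the 1729 peaks chosen by wild-type replicate 1, 66.3% held at least 2 peaks of wild-type replicate 2. This share was 73.7% and 75.7% in *Dhx9* KO and 45.5% and 59.6% in *Uhrf1* KO replicates 1 and 2. A chosen peak left with 1 peak or none counts as unbroken here. No peak was left in 380 and 80 of the 1729 in *Uhrf1* KO replicates 1 and 2. In *Dhx9* KO replicates 1 and 2 there were 49 and 32, and in the held-out list 2. The lower shares in the *Uhrf1* KO libraries therefore cannot show how often the remaining cover was broken. The longest run was shorter in every knockout, with a median of 14000 bp in the held-out list, 10400 and 9000 bp in *Dhx9* KO and 3200 and 10600 bp in *Uhrf1* KO cells. When the knockout lists were intersected in the same way, 249 stretches of 15 kb or longer were found in *Dhx9* KO and 163 in *Uhrf1* KO cells. The single libraries gave another order, with 1079 and 985 autosomal peaks of 15 kb or longer in *Dhx9* KO and 405 and 1242 in *Uhrf1* KO replicates 1 and 2. All 249 and 160 of the 163 were shared wild-type cover over at least 50% of their length.

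The cover that was missing lay more at the ends of the stretches than at their centres. In the central 10%, mean cover was 83.2% and 83.1% in *Dhx9* KO and 41.5% and 81.2% in *Uhrf1* KO replicates 1 and 2, and in the outermost 5% at either end it was 68.6% and 67.4%, and 26.6% and 68.1%. Ends were lower than centres in 4 of 4 knockout libraries, also off chromosome 8. In the 5 kb beyond the ends, where a stretch stops by its definition, mean cover was 60.6% and 58.8% in the wild-type libraries, 48.1% and 46.3% in *Dhx9* KO and 18.9% and 45.3% in *Uhrf1* KO cells. The ends were set by the wild-type lists, so a list with shifted or noisier limits also gives lower values there, and its part was not tested.

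**Figure D2:**
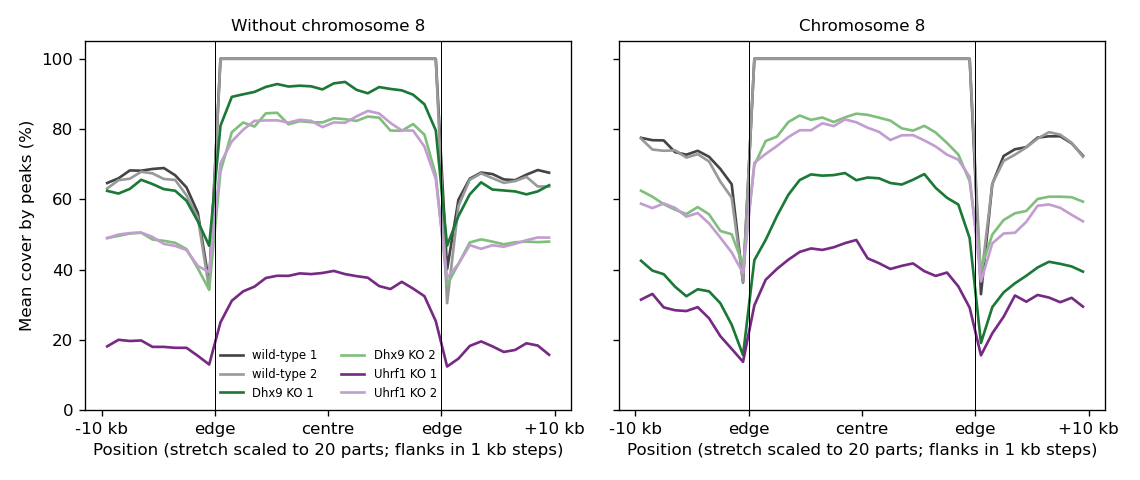
Mean cover by peaks (y axis, %) along the broad stretches scaled to a common length, from 10 kb before to 10 kb after (x axis), for each of the 6 libraries, with panels for the sets named in their titles. The wild-type lines are at 100% within the stretch by the choice of members, and within it each knockout line is lower at the edges than towards the centre.

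Broad stretches kept more of their bases than shorter ones under the lists as deposited. Peaks covered 80.7% of the bases of broad stretches in each *Dhx9* KO library and 38.1% and 79.6% in *Uhrf1* KO replicates 1 and 2, against 75.9%, 70.5%, 35.5% and 67.6% of the bases of shared stretches of 600 bp to under 15000 bp. Cover of broad stretches was higher by 4.75, 10.2, 2.62 and 12 percentage points, on average 7.38 points and in 4 of 4 libraries (exact sign-flip permutation test, two-sided, p = 0.13, the smallest that 4 libraries allow). The mean difference was 9.39 points without chromosome 8 and 3.89 points against stretches of 5000 bp or longer. The direction turned with a stricter choice of peaks, to -1.50 points at a false discovery rate of at most 1e-10 and to -10.6 points at a log2 fold of at least 1.

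Loss of all peaks was rare in broad stretches, but a long stretch has more places for a peak to remain. No peak of either *Uhrf1* KO library was found in 30 of 797 broad stretches (3.76%), beside 25.6% of all shared stretches. Off chromosome 8 this was 11 of 526 (2.09%), beside 25.8%. No peak of either *Dhx9* KO library was found in 9 broad stretches (1.13%), beside 7.60% of all shared stretches, and all 9 lay on chromosome 8. Elsewhere it was 0 of 526, beside 7.16%. Among shared stretches of 5000 bp to under 15000 bp, 11.3% had no peak in *Uhrf1* KO and 1.36% none in *Dhx9* KO cells, closer to the broad ones. In single libraries, 23 and 12 broad stretches (2.89% and 1.51%) had no peak in *Dhx9* KO replicates 1 and 2. In *Uhrf1* KO replicates 1 and 2 there were 130 and 33 (16.3% and 4.14%). Among shared stretches of 600 bp to under 15000 bp these shares were 16.1%, 19.3%, 52.2% and 27.3% in the same order. At the other end, 11 broad stretches (1.38%) were covered over 99% or more in all 4 knockout libraries, beside 12.5% of all shared stretches, most of which are short. Cover under 50% in both *Uhrf1* KO libraries was found in 103 broad stretches (12.9%, and 53 off chromosome 8), beside 29.5% of all shared stretches.

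The stretches without a peak in *Uhrf1* KO cells lay mostly within genes. In these 30, 79.7% of the bases were intronic, 10.4% exonic and 9.89% outside genes of GENCODE M21, whereas over all 797 these shares were 50.9%, 6.16% and 43.0%. Their median GC content was 52.5% against 49.5% for all, and their wild-type log2 fold of ChIP over background, as the peak caller gave it, had a median of 0.41 against 1.04. Of the 30, 19 lay on chromosome 8. The other 11 had 63.1% of their bases in introns and 24.8% outside genes, a GC content of 52.7% and a fold of 0.79. The longest of them covered *Slc7a5*, a large neutral amino acid transporter, at chr8:121870001-121896200, where *Dhx9* KO peaks covered 25.2% and 12.2%. The next, at *Plxdc1* on chr11:97911001-97936000, was covered over 89.6% in *Dhx9* KO replicate 1 and 0% in replicate 2. At *Brsk2*, a neuronal polarity kinase on chr7:141977801-142001800, *Dhx9* KO peaks covered 99.2% and 69.2%. *Gas6*, the ligand of the TAM receptor kinases, and *Tmem255b* on chr8:13460801-13484400 had 89.0% and 78.0%. *Zfpm1*, the GATA cofactor also called FOG1, on chr8:122295401-122318800 had 44.4% and 34.2%. The *Dhx9* KO replicates thus were both above 50% at 2 of these 5 stretches, both below it at 2 others and on either side of it at *Plxdc1*.

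The longest 5 of the 9 stretches without a peak in *Dhx9* KO cells lay on chromosome 8 and had weak peaks in wild-type cells, with wild-type log2 folds of 0.25 to 0.45. They lay mainly in introns of *Smpd3*, a sphingomyelinase, at chr8:106257401-106280000, of the phospholipid flippase *Atp11a* at chr8:12791201-12813200, of the O-glycosylation enzyme *Galnt2* at chr8:124326801-124347800 and of *Cmip* at chr8:117427201-117447400. The 4 had 0% in both *Dhx9* KO and both *Uhrf1* KO libraries. The fifth, at the myosin gene *Myo9b* on chr8:71342601-71361800, had 0% in both *Dhx9* KO libraries and 0% and 8.33% in *Uhrf1* KO replicates 1 and 2.

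Cover in 3 of the 4 knockout libraries went down with GC content. In 4 nearly equal classes of broad stretches, from the lowest GC content (40.6% to 47.6%) to the highest (51.3% to 57.2%), median cover was 73.0%, 37.4%, 20.0% and 11.3% in *Uhrf1* KO replicate 1, 98.7%, 93.0%, 81.8% and 72.4% in *Uhrf1* KO replicate 2, and 95.3%, 85.7%, 81.0% and 75% in *Dhx9* KO replicate 2. In *Dhx9* KO replicate 1 it was 84.5%, 86.5%, 91.5% and 90.5%, without such a fall. Across the 797 stretches, which share libraries and are not replicates, Spearman's rho between GC content and cover was -0.63 and -0.46 in *Uhrf1* KO and 0.13 and -0.44 in *Dhx9* KO replicates 1 and 2. Off chromosome 8 the ends of the range kept this order, with 79.0% and 11.6% in *Uhrf1* KO replicate 1, 98.0% and 75.2% in *Uhrf1* KO replicate 2, 93.1% and 75.1% in *Dhx9* KO replicate 2, and 93.5% and 93.9% in *Dhx9* KO replicate 1. Soft-masked repeats moved the other way, with rho of 0.43 and 0.25 between masked share and cover in *Uhrf1* KO and -0.08 and 0.18 in *Dhx9* KO cells, and the part of repeats in the relation with GC content was not tested.

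**Figure D3:**
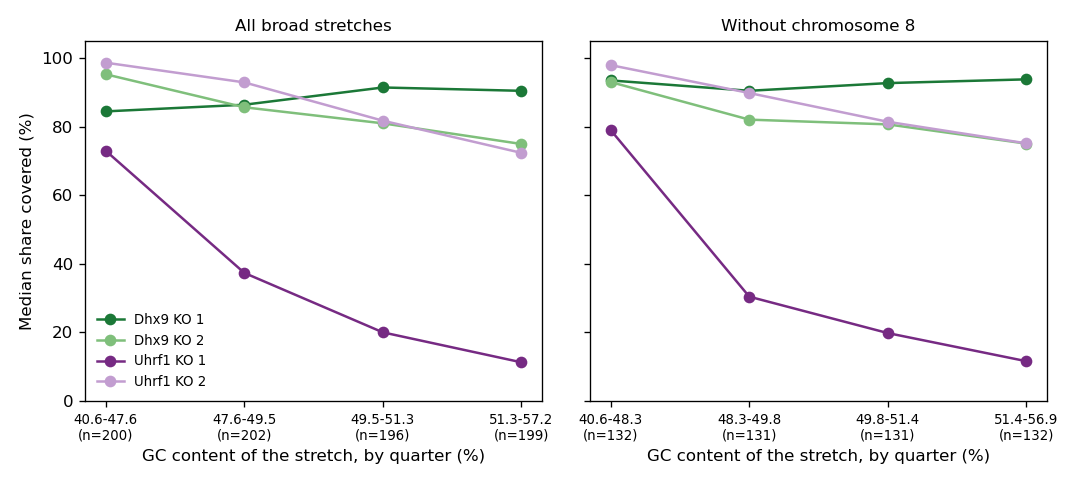
Median share of a broad stretch covered by peaks (y axis, %) in 4 classes of GC content (x axis, range and number of stretches in each) for the 4 knockout libraries, over all broad stretches and without chromosome 8. Cover falls from the lowest to the highest class in both *Uhrf1* KO libraries and *Dhx9* KO replicate 2, from 73.0% to 11.3% in *Uhrf1* KO replicate 1, and not in *Dhx9* KO replicate 1.

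The strongest wild-type stretches were the best kept, with few exceptions. At a wild-type log2 fold of 2 or more (mean of the 2 libraries), 28 stretches had median cover of 98.9% and 100% in *Dhx9* KO and 99% and 100% in *Uhrf1* KO replicates 1 and 2. For the 417 with a fold of 1 to 2 these medians were 92.1%, 88.7%, 39.4% and 93.5%, and for the 352 below 1 they were 79.4%, 79.1%, 15.9% and 79.1%. The 28 were richer in soft-masked repeats, with a median of 37.0% of bases against 18.3% over all 797, and 66.4% of their bases lay outside genes. Spearman's rho between wild-type fold and cover was 0.49 and 0.37 in *Dhx9* KO and 0.49 and 0.43 in *Uhrf1* KO replicates 1 and 2. Off chromosome 8 it was 0.19, 0.49, 0.65 and 0.54 in the same order, so the relation was weak in *Dhx9* KO replicate 1. The wild-type fold also took part in calling the peaks that chose the stretches. Of the 28, 2 were covered under 50% in both *Uhrf1* KO libraries and over 84% in both *Dhx9* KO libraries, and are named for that, after their values were seen. The first lay at *Peg13* and *Trappc9* and is described with the imprinted genes. The other spanned 21800 bp of *Sytl3*, a Rab effector, and *Ezr*, which codes for the membrane to actin linker ezrin, at chr17:6731001-6752800, with 88.1% and 89.9% in *Dhx9* KO and 0% and 35.8% in *Uhrf1* KO replicates 1 and 2.

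**Figure D4:**
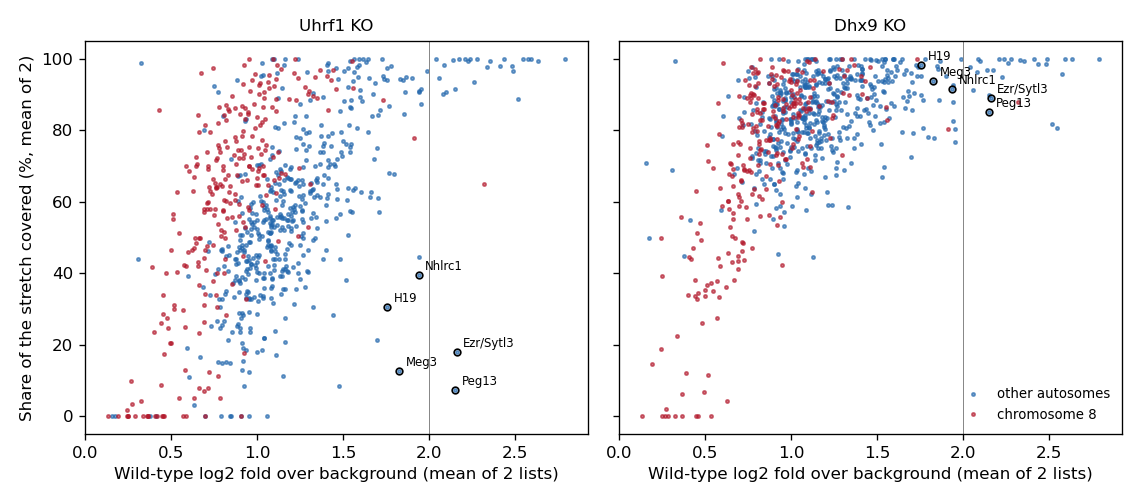
Share of each broad stretch covered by peaks (y axis, %, mean of the 2 libraries) against its wild-type log2 fold over background (x axis, mean of the 2 lists) in each knockout, with stretches on chromosome 8 in their own colour and selected stretches named. To the right of the line at a fold of 2, cover is high in both knockouts, apart from the *Peg13* and *Ezr* stretches in *Uhrf1* KO cells and, less far down, an *Arhgap10* stretch on chromosome 8 at a mean of 65.0%.

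Cover under 50% in both *Uhrf1* KO libraries together with 80% or more in both *Dhx9* KO libraries was found in 16 broad stretches (2.01%, and 12 off chromosome 8), beside 5.86% of all shared stretches. The reverse was found in 0 of 797, beside 0.576%. Apart from *Meg3*, *Peg13* with *Trappc9*, and *Ezr* with *Sytl3*, the 16 included the sodium-activated potassium channel gene *Kcnt1*, the chloride channel gene *Ano1*, *Lrrk1*, *Crxos*, *Nrxn2* with *Slc22a12*, the kallikreins *Klk1b26* and *Klk1b11*, and *Olfr718-ps1*. Another 4 lay on chromosome 8, 3 of them within the long readthrough gene *Gm20388*, and 2 touched no gene. These names were picked after their values were seen.

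Imprinted genes, which are expressed from the copy of a single parent and whose control regions carry parental DNA methylation, were among the genes inside. Of 18 imprinted genes that the study names, 3 (16.7%) lay over at least 50% of their length in broad stretches, and so did 1 of 26 other imprinted genes, against 334 of 51229 annotated genes (0.652%). The list of 18 was chosen by the study on these samples and is not independent evidence. In all, 7 broad stretches touched or lay within 5 kb of a gene on either list. Their median cover was 89.3% and 87.5% in *Dhx9* KO and 11.1% and 64.9% in *Uhrf1* KO replicates 1 and 2. All 7 were covered over more than 75% in both *Dhx9* KO libraries, whereas 6 were under 50% in *Uhrf1* KO replicate 1 and 2 in replicate 2. Over all broad stretches, 68.4% and 12.9% were under 50% in these libraries, so the low cover in replicate 1 was shared with most other broad stretches.

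At *Meg3*, the maternally expressed noncoding RNA of the *Dlk1*-*Dio3* cluster, an 18000-bp stretch (chr12:109525801-109543800) was covered over 87.8% and 100% in *Dhx9* KO and 11.1% and 14.4% in *Uhrf1* KO replicates 1 and 2. The peaks there held 58.1 and 73.3 ChIP reads per kb in wild-type, 51.9 and 53.6 in *Dhx9* KO and 22 and 30 in *Uhrf1* KO replicates 1 and 2. Both *Uhrf1* KO libraries lay below both *Dhx9* KO libraries in cover and in reads per kb, which are not scaled to library size. The log2 fold of the remaining peaks over their background did not separate the knockouts, with 1.19 and 1.37 in *Dhx9* KO and 1.54 and 0.90 in *Uhrf1* KO replicates 1 and 2. A neighbouring stretch at *Gm34081* (chr12:109502601-109518000) had 94.8% and 79.2% in *Dhx9* KO and 0% and 16.9% in *Uhrf1* KO cells. The window at *Meg3* printed above lies outside annotated exons and introns.

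At *Peg13*, a paternally expressed noncoding RNA within an intron of the trafficking gene *Trappc9*, a 22200-bp stretch (chr15:72799601-72821800) was covered over 85.6% and 84.7% in *Dhx9* KO and 0% and 14.4% in *Uhrf1* KO replicates 1 and 2. Its peaks held 84.7 and 89.5 ChIP reads per kb in wild-type, 58.4 and 78.2 in *Dhx9* KO and 31.6 in *Uhrf1* KO replicate 2. In cover, both *Uhrf1* KO libraries were again below both *Dhx9* KO libraries. A second *Trappc9* stretch (chr15:72661201-72683600), wholly intronic, had 89.3% and 87.5% in *Dhx9* KO but 2.68% and 74.1% in *Uhrf1* KO cells, so that only replicate 1 was low.

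The *H19* stretch was the largest of the imprinted ones, 56200 bp at chr7:142554201-142610400. It held *H19*, the maternally expressed noncoding RNA beside *Igf2*, its microRNA *Mir675* and the noncoding gene *Nctc1*. Cover was 100% and 96.4% in *Dhx9* KO and 3.56% and 57.7% in *Uhrf1* KO replicates 1 and 2. Reads per kb within peaks were 70.9 and 64.6 in wild-type, 54.0 and 60.6 in *Dhx9* KO and 17.0 and 29.6 in *Uhrf1* KO cells. Both *Uhrf1* KO libraries were below both *Dhx9* KO libraries in cover, but far apart from each other, and on the log2 fold scale the knockouts overlapped (1.24 and 1.38 against 1.38 and 0.65). With equal called bases, mean cover was 98.2% in *Dhx9* and 1.78% in *Uhrf1* KO cells at *H19*, 93.9% and 5.56% at *Meg3*, and 80.2% and 0% at *Peg13*. These are means of 2 libraries, and the other imprinted stretches are not given this way. The cut ranked peaks by log2 fold, over backgrounds that differed between the knockouts. *Uhrf1* KO replicate 1 was the shortest list and was left uncut.

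Elsewhere on distal chromosome 7, the stretch at the placental transcription factor gene *Ascl2* (chr7:142952201-142975200) had 77.4% and 75.7% in *Dhx9* KO and 15.7% and 67.0% in *Uhrf1* KO replicates 1 and 2. The stretch at chr7:143178201-143200400 lay in the potassium channel gene *Kcnq1*, near its paternally expressed antisense RNA *Kcnq1ot1*. It was the best kept of the 7, with 100% and 98.2% in *Dhx9* KO and 76.6% and 96.4% in *Uhrf1* KO cells. It held 0% of *Kcnq1ot1*, so it says nothing of that gene itself. The paper reports a striking fall of H3K9me3 at the *Kcnq1ot1* imprinting cluster in *Uhrf1* KO cells. At *Nhlrc1*, the ubiquitin ligase malin, on chr13:46999401-47014800, the values were 98.7%, 84.4%, 14.3% and 64.9% in the same order.

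Other strong stretches were also low in *Uhrf1* KO cells. At a wild-type log2 fold of 1.4 or more, a limit set after the values were seen, 12 of 143 broad stretches (8.39%) had mean *Uhrf1* KO cover under 50%, and 4 of the 12 were imprinted-list stretches, of 5 such stretches at that strength. Replicate 1 carried much of this, as 6 of the 12, and 2 of the 4, were under 50% in *Uhrf1* KO replicate 2. Among the other 8, *Padi1*, a protein arginine deiminase, had 23.7% and 65.6% in *Uhrf1* KO replicates 1 and 2, and *Iqce* had 18.5% and 58.0%. None of the 143 had mean *Dhx9* KO cover under 50%.

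The longest broad stretches were kept to a different degree. The longest of all, 99600 bp at chr4:140257801-140357400, holds the noncoding gene *Gm9867* and was covered over 97.6% and 87.3% in *Dhx9* KO and 31.3% and 90.2% in *Uhrf1* KO replicates 1 and 2. Its longest unbroken run was 53400 and 24800 bp in *Dhx9* KO and 14800 and 26000 bp in *Uhrf1* KO cells. A gene-free stretch of 65600 bp at chr4:152782001-152847600 had 92.1%, 89.9%, 51.2% and 92.7% in the same order. Adjoining stretches of 65600 and 65800 bp at chr17:27286001-27351600 and chr17:27354401-27420200, which hold the microRNA genes *Mir7214*, *Mir7216*, *Mir7217* and *Mir7218*, were at 100% in all but *Uhrf1* KO replicate 1, which had 96.6% and 96.7%. The 77400-bp stretch at chr9:3000001-3077400, at the start of the assembled chromosome, was covered over 98% or more in every knockout library, and 73.7% of its bases were soft-masked. It held 2533 to 6521 reads per kb in the 6 libraries, far above the median of 52.4 for wild-type replicate 1, and reads from near-identical repeat copies may be counted together there.

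Kept stretches were repeat-rich in the median. The longest stretch that was covered throughout in all 4 knockout libraries had 49800 bp at chr12:20254801-20304600, in introns of *Gm49692*, and held 166 and 155 reads per kb in wild-type, 116 and 134 in *Dhx9* KO and 83.8 and 168 in *Uhrf1* KO replicates 1 and 2. The 11 stretches kept at 99% or more in all 4 libraries had a median wild-type log2 fold of 2.21, 37.9% of bases masked and a GC content of 46.5%. They also included repeat-poor ones, at *Gfra2* (chr14:70916801-70933400, 12.8% masked) and at chr16:3642001-3663200 (11.3%). Of all 797, 14 were masked over at least 50%, and their median cover was 98.3% and 100% in *Dhx9* KO and 98.8% and 100% in *Uhrf1* KO cells. Of these 14, 1 had no peak in *Dhx9* KO replicate 1 and 1 had none in *Uhrf1* KO replicate 2. In *Uhrf1* KO replicate 1, 1 was under 50%.

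**Figure D5:**
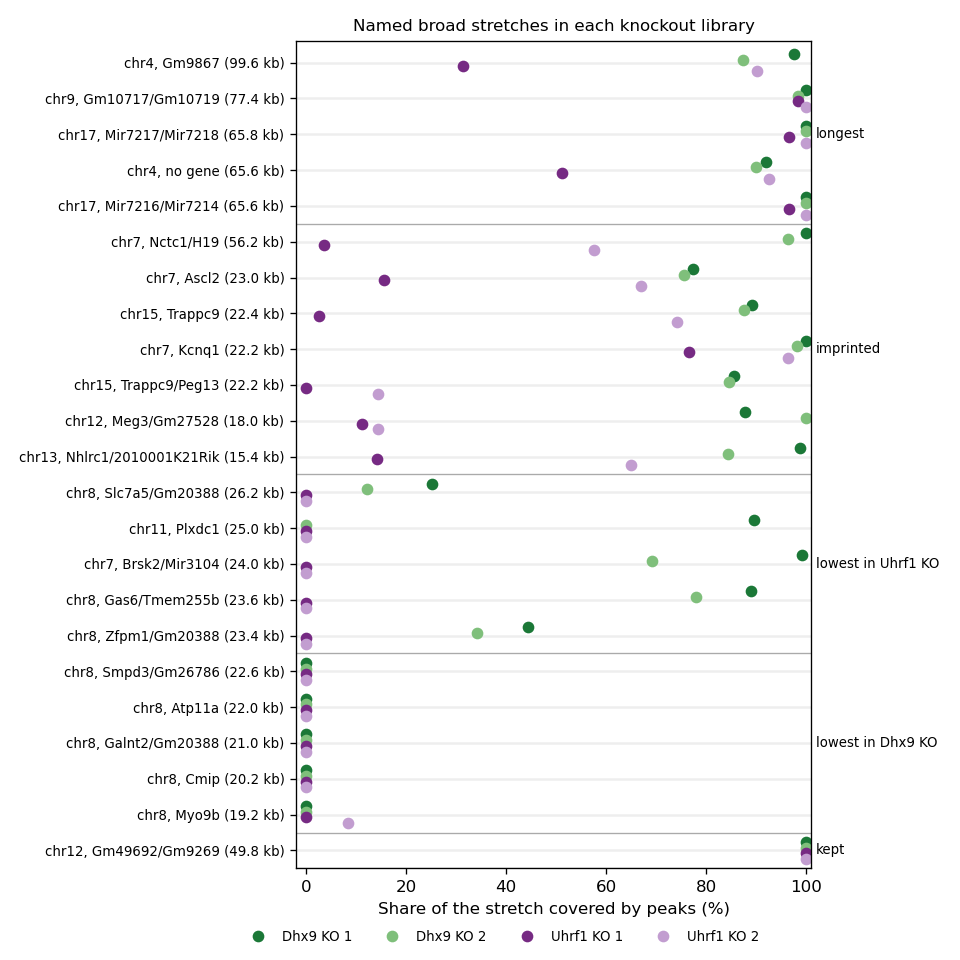
Share of named broad stretches covered by peaks (x axis, %) in each of the 4 knockout libraries (points), grouped by why they are named. The imprinted stretches lie to the right in *Dhx9* KO libraries and, other than *Kcnq1*, far to the left in *Uhrf1* KO replicate 1, while the long stretches on chromosome 17 are near 100% in every library.

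Broad stretches touched 678 of 51229 annotated genes, 384 of them protein coding, and 227 stretches touched none. Keratin and keratin-associated genes, which code for intermediate filaments of epithelium and hair, had 9 of 113 members (7.96%) over at least 50% of their length in broad stretches, against 0.652% of all genes. The 6 keratin stretches had median cover of 93.4% and 84.5% in *Dhx9* KO and 25.2% and 91.1% in *Uhrf1* KO replicates 1 and 2, close to the values over all broad stretches. The longest of them held *Krt90*, *Krt82* and *Krt75* (chr15:101539601-101566200) and had 89.5%, 79.7%, 21.8% and 82.7%. Cytochrome P450 genes had 4 of 129 members inside, and their longest stretch, at the pseudogene *Cyp3a63-ps* on chr5:145627201-145655400, had 78.0% and 79.4% in *Dhx9* KO and 100% and 68.1% in *Uhrf1* KO cells, with *Uhrf1* KO replicate 1 the highest.

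Few genes of the other lists lay in broad stretches. Of 426 zinc finger genes, 1 (0.235%) lay inside over at least 50% of its length and 6 (1.41%) were touched, against 0.652% and 1.32% of all annotated genes. *Zfp423* was touched by 3 stretches on chromosome 8, all without a peak in either *Uhrf1* KO library. The longest zinc finger stretch, at *Zfp469* on chr8:122247601-122271600, had 69.2% and 17.5% in *Dhx9* KO and 5.83% and 8.33% in *Uhrf1* KO cells. Of 1380 olfactory receptor genes, 1 (0.0725%) lay inside, *Olfr718-ps1*, which GENCODE M21 lists as protein coding in spite of its name, at chr5:143126001-143146200 (86.1%, 92.1%, 18.8% and 37.6%). Serpins had 1 of 67, *Serpina1f*, in a stretch at chr12:103684001-103699000 with mean cover of 78% in *Dhx9* KO and 61.3% in *Uhrf1* KO cells. *Serpina1e* was touched over 1.45% of its length by a stretch at chr12:103958801-103974600 that had 100%, 97.5%, 100% and 100%. Prolactin, Psg and Ceacam genes had 1 of 54. None of 327 vomeronasal receptor, 58 clustered protocadherin, 18 germline, 65 defensin, 39 *Hox*, 10 pluripotency, 8 housekeeping or 17 H3K9me3 machinery genes was touched, in lists most of which are too short for the share over all genes to give a single gene.

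To compare the knockouts by read counts rather than by calls, ChIP reads were summed over 2011 regions called and covered over at least 80% in all 4 knockout libraries, and tested with edgeR's quasi-likelihood test. Wild-type libraries took no part. Over all regions, 30 (1.49%) were lower and 4 (0.199%) higher in *Uhrf1* than in *Dhx9* KO cells at an adjusted p of 0.05. Only 55 of the 797 broad stretches lay in a tested region, since the others were not covered well enough in every library, so this speaks for well-kept stretches alone. Of the 55, 2 were in a called region, both lower in *Uhrf1* KO, and 0 were higher. At an unadjusted edgeR p under 0.05 there were 10 of the 55, beside 346 of all 2011 regions. The median log2 change of the 55 was -0.01, against -0.02 over all regions. DESeq2 also called 2 of the 55, both lower, but different ones, so that neither pair was called by both tools.

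The edgeR calls were the stretch at *Psg18*, a pregnancy-specific glycoprotein gene (chr7:18345801-18361600), and that at *Ces3a*, a carboxylesterase gene (chr8:105044201-105059800). The *Psg18* region held 44.9 and 53.0 ChIP reads per kb called in *Dhx9* KO and 18.9 and 37.3 in *Uhrf1* KO replicates 1 and 2. In the same order, this was 39.0, 37.5, 25.2 and 23.3 CPM per kb. CPM here are counts scaled to the ChIP reads of a library within the 2011 tested regions, not to all its reads. The log2 change of the *Psg18* region was -0.63 (SE 0.14, edgeR adjusted p = 0.0151), with no overlap between the knockouts. The *Ces3a* region held 43.8 and 52.2 reads per kb in *Dhx9* KO and 19.8 and 33.8 in *Uhrf1* KO, or 38.0, 36.9, 26.5 and 21.1 CPM per kb. Its log2 change was -0.64 (SE 0.15, edgeR adjusted p = 0.0214). DESeq2 gave adjusted p = 0.0801 for *Psg18* and 0.140 for *Ces3a*, and both calls were lost when any of the 4 libraries was left out (edgeR adjusted p of 0.133 to 0.477), with the remaining library of that knockout assumed to vary like the other group. The stretches called by DESeq2 were those at *Gm37450* on chr1:171537401-171557000 (log2 change -0.66, DESeq2 adjusted p = 0.0217) and at the *Dux* copy *Duxf3*, an activator of zygotic genes, on chr10:58220801-58241200 (-0.58, DESeq2 adjusted p = 0.0422). With edgeR their adjusted p-values were 0.0651 and 0.144.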

How the data were processed

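H3K9me3 peak lists of 6 libraries were used; the other 12 samples of the series were not analysed here. The authors aligned reads with Bowtie2 2.3.4.3 in local mode to mm10 and subsampled them with SAMtools to a similar number per library. They called peaks for each library with epic2 in 200-bp bins against an input library, keeping duplicates. For every peak, the deposited lists hold raw counts of reads (ChIP, background), a p-value, a false discovery rate of at most 0.05 and a log2 fold over background. The authors' log2 fold and p-value were used to describe or filter peaks. Reads outside peaks are not in the lists, so loss of a peak need not be loss of all signal.

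The members and gene lists were chosen with earlier results of these data known. Peaks were intersected with Python 3.11.15 (pandas 2.3.3, NumPy 2.4.6, SciPy 1.17.1), genes were taken from GENCODE M21, and sequence and masking from GRCm38.p6 (pysam 0.24.0). Counts of regions merged from the 4 knockout lists were tested with edgeR 4.0.16 in R 4.3.3 (TMM, called length as offset, filterByExpr, which removed 0 regions, Benjamini-Hochberg threshold 0.05), with DESeq2 1.42.0 as an alternative. On simulated data for the 2011 regions, 172 of 200 changes of 2-fold were recovered with 2 false calls. Replicates were not copies of each other. Values cover counting error only where single libraries are given.

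Stretches were named by rule: the 5 longest, the 5 lowest in each knockout, the longest kept, each at an imprinted gene, the longest per gene list, those in called regions and those nearest the length limit. Other names were added after values were seen and are marked so. Alternatives were length limits, stricter peaks, equal called bases, other count settings and leaving out each library. Leaving out chromosome 8, bridging 2000-bp gaps and comparing with stretches of at least 5000 bp were chosen after seeing the data.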

Additional observations from a re-analysis of the deposited data

How the results depend on the processing

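The number of broad stretches, 797, became 2532 and 313 with length limits of 10000 and 20000 bp, 397 with a log2 fold of at least 1, 526 without chromosome 8 and 3562 when gaps of up to 2000 bp were bridged, and 1498 to 1729 when 1 wild-type list chose alone. Bridging gaps of up to 600 bp changed nothing, since the smallest gap was 800 bp. Stretches without a peak in either *Uhrf1* KO library, 30, numbered 132, 13, 104 (false discovery rate of at most 1e-10), 46 (log2 fold), 11 (no chromosome 8) and 93 (bridged), and 33 to 130 with a library left out; those without a peak in *Dhx9* KO, 9, numbered 26 and 4 at the length limits, 31 (false discovery rate), 37 (log2 fold) and 0 (no chromosome 8), and 12 to 23 with a library left out. Median *Dhx9* KO cover, 87.0%, was 80.4% with the false discovery rate, 64.8% with the log2 fold, 25.8% with equal called bases and 83.7% bridged, and 79.6% to 88.7% with a library left out. Broad minus other cover turned to -1.50 (p = 0.875), -10.6 (p = 0.13) and -0.0387 (p = 1) points at the stricter false discovery rate, the log2 fold limit and equal called bases (exact sign-flip permutation tests). The *Uhrf1* minus *Dhx9* KO difference turned to 2.25 points without *Uhrf1* KO replicate 1 lay between -56.2 and 2.25 over libraries left out, and was -0.122 with equal called bases. The cause of these changes was not tested.

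In the count test, 34 regions and 2 broad stretches were called. These were 1090 and 34 when each library was scaled to the ChIP reads in all its peaks in place of TMM. There the median of all regions moved to 0.64 on the log2 scale, and the *Psg18* and *Ces3a* changes turned to 0.0377 and 0.0383. The called regions numbered 61 with no length offset and 164 when cover of 50% was enough. With reads shared out over wild-type stretches, 0 regions and 0 stretches were called (1867 of 20019 at an unadjusted edgeR p under 0.05). Without chromosome 8, 1 broad stretch was called. Leaving out a library gave 0 to 32 regions and 0 to 1 stretches. With the replicate number as a block, 0 regions and 0 stretches were called by edgeR (283 regions at an unadjusted p under 0.05; DESeq2 without the block called 25), and both stretches had an adjusted p of 0.304. The numbers are not shown to pair the samples, as replicate deviations of the 2 knockouts had a correlation of -0.004. Calls rest on well-covered stretches. The paper states that aligned reads were subsampled to a similar number per library before peak calling. The total depth of the libraries is not in the lists, so this was not checked directly. Peaks in broad stretches held a median of 24.3 and 41.8 ChIP reads per kb in *Uhrf1* KO replicates 1 and 2. Their median background was 16.6 and 16.3 reads per kb, and their median log2 fold was 1.07 and 0.93. Whether the few reads in peaks of *Uhrf1* KO replicate 1 reflect depth or enrichment was not tested.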

Other observations

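Among gene families added after seeing the data, kallikrein genes, which code for secreted serine proteases, had 9 of 37 members (24.3%) over at least 50% of their length in broad stretches, and mucin genes had 3 of 13 (23.1%), namely *Muc6*, *Muc5ac* and *Muc5b*. The 4 kallikrein stretches had median cover of 91.2% and 91.4% in *Dhx9* KO and 19.9% and 89.0% in *Uhrf1* KO replicates 1 and 2, and the 4 mucin stretches had 96.3%, 94.7%, 30.7% and 92.0%. The orosomucoid genes *Orm1* and *Orm3* shared a stretch with 100%, 76.5%, 0% and 81.5%. As the families were picked for what they held, these are values without a test.

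Broad stretches were unevenly spread over chromosomes. Chromosome 3 had 1 and chromosome 19 had 4, against 65 on chromosome 4 and 271 on chromosome 8. Of all 797, 140 (17.6%) lay within 10 kb of another. Outside the autosomes, 1 shared stretch of that length lay on Y and 0 on X.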
